A study of Mus musculus with 38 samples.

Results

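The subject is how the transcriptional response to dexamethasone (Dex), a synthetic glucocorticoid, differed between Th17 cultures lacking the interleukin-23 receptor (IL-23R KO) and wild-type (WT) cultures. It was read from 16 of the 38 libraries of the series, all columns of the 1 table of in vitro cultures. The quantity is the interaction, (KO Dex minus KO Ctrl) minus (WT Dex minus WT Ctrl), on the log2 scale, so that a positive value is a response more positive in KO cultures. T cells taken naive from spleen and lymph node of C57/B6 mice, WT or lacking IL-23R, were turned in culture into the inflammatory Th17 state that the labels call Th17Inf. They were then kept for 2 days with or without Dex, and live Th17 cells were sorted for poly(A) RNA sequencing. The 4 groups were IL-23R KO with Dex (KO Dex, libraries 5 to 8), IL-23R KO without Dex (KO Ctrl, libraries 5 to 8), WT with Dex (WT Dex, libraries 1 to 4) and WT without Dex (WT Ctrl, libraries 1 to 4). The Dex concentration, the vehicle and the cytokines of the culture are not given in the sources used here, so whether IL-23 itself was present is not known. Nothing states that replicates came from separate cultures or animals, so every p-value here reflects library-to-library spread alone, which may be technical.

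Glucocorticoids bind the glucocorticoid receptor (GR), encoded by Nr3c1, which leaves its HSP90 chaperone complex, enters the nucleus and binds DNA at glucocorticoid response elements. In T cells this raises genes such as Tsc22d3, which encodes the leucine zipper protein GILZ, and lowers many cytokine genes whose transcription depends on NF-kB and AP-1. IL-23 signals through IL-23R and IL-12Rβ1 to JAK2, TYK2 and STAT3, and sustains the pathogenic state of Th17 cells.

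Libraries held 3320586 to 4732419 counts, and levels are normalised CPM, counts scaled to library size after TMM correction for composition. Il23r (ENSMUSG00000049093.9, chr6:67422932-67491855, mm10) was counted at 1.503, 2.39, 1.98 and 2.13 normalised CPM in KO Dex libraries, against 3.97, 5.28, 2.14 and 4.55 in KO Ctrl libraries. Il23r stood at 12.4, 15.9, 5.89 and 8.59 in WT Dex libraries and WT Ctrl libraries 7.27, 8.03, 6.14 and 5.79. KO values lay under the WT values of the same treatment, but the transcript was still counted, and whole-gene counts cannot show a deleted exon, so the genotype rests on the labels. The KO Dex group stood apart from the other 3 in library composition. Its libraries gave 31.4 to 38.4% of their counts to repeats and ribosomal RNA, against 14.3 to 22.9% in KO Ctrl, 22.0 to 26.2% in WT Dex and 16.9 to 19.8% in WT Ctrl libraries. In exact two-sided permutation tests KO Dex differed from KO Ctrl and from WT Dex, and WT Dex from WT Ctrl (p = 0.0286 each, the smallest that 4 against 4 allows), while KO Ctrl and WT Ctrl gave p = 0.943. Mitochondrially encoded genes held 0.359 to 0.447% of counts in KO Dex libraries and 1.46 to 2.26% in the other 12. Because all 4 libraries of the group share this composition, no interaction can be given without them, and composition and the KO Dex condition cannot be told apart. Marker sums are CPM of library totals without TMM correction, and these totals include the repeat and ribosomal RNA counts. With such totals the median KO response over all tested genes was -0.45 (log2), against 0.01 with TMM, so part of a lower sum in KO Dex can be scaling. The summed level of 9 T cell markers was 1484 to 1834 CPM in KO Dex libraries and 2514 to 2858 CPM in the others. In the TMM fit 5 of the 9 had a negative interaction, against 17.2% of all tested genes. Macrophage and dendritic cell lists were higher in KO Dex libraries (14.6 to 22.6 and 628 to 824 CPM, against 4.78 to 12.4 and 214 to 372 CPM elsewhere), through 1 gene each, Cd68 and H2-Ab1. Other members did not follow: Aif1 had 28 counts in KO Dex, 53 in KO Ctrl, 47 in WT Dex and 61 in WT Ctrl, H2-Aa 16, 88, 6 and 48, and Cd74 168, 162, 162 and 195. Lyz2 and Itgam were at 0 in every library and Itgax at 0 to 1 counts per group. The CD8 and NK list stood at 47.1 to 79.0 CPM in KO Dex, 519 to 855 in KO Ctrl, 111 to 268 in WT Dex and 241 to 632 in WT Ctrl libraries. Nkg7 had 795, 11224, 3519 and 8561 counts in these groups, and Cd8b1 had 235, 224, 202 and 208. B cell, granulocyte, fibroblast and erythroid lists summed to at most 55.7 CPM in any library, with Cpa3 and Col1a2 at 0. What these markers contributed to the interactions was not tested, and in bulk RNA fewer cells of a type and less RNA per cell cannot be told apart.

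**Figure D1:**
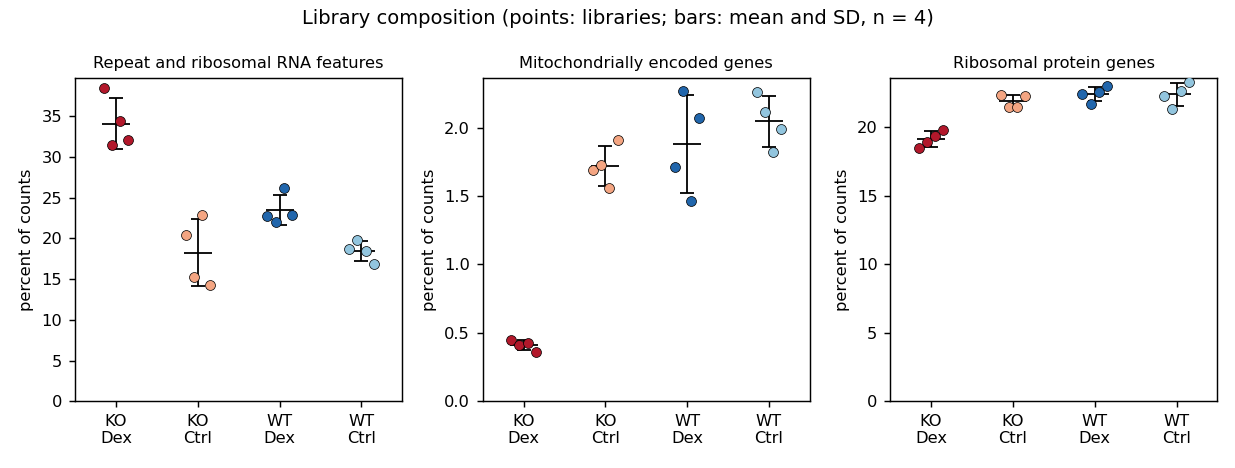
Share of counts (percent, y axis) taken by repeat and ribosomal RNA features, by mitochondrially encoded genes and by ribosomal protein genes in each library. Points are libraries and bars the mean and SD of 4; the KO Dex libraries are apart from the other 12 in each panel, with 31.4 to 38.4%, 0.359 to 0.447% and 18.5 to 19.8%.

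The Dex response differed by genotype for 3487 of 10813 tested genes (32.2%), 1623 more positive in KO cultures (15%) and 1864 more negative (17.2%), by the edgeR quasi-likelihood test at an adjusted p under 0.05. Dex changed 5911 genes in KO cultures (54.7%), 2950 up (27.3%) and 2961 down (27.4%), against 874 in WT cultures (8.08%), 420 up and 454 down. Without Dex the genotypes differed at 74 genes (0.684%), 24 higher (0.222%) and 50 lower (0.462%) in KO, and with Dex at 4967 (45.9%). Of the interactions, 1546 (14.3%) were at least 2-fold, 746 positive (6.9%) and 800 negative (7.4%). The split by direction depends on composition scaling. With library totals alone the same test gave 769 positive and 3439 negative interactions, and the median over all genes moved to -0.37 from -0.01 on the log2 scale.

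Genes fell into classes by the 3 calls, as a description. A larger response of the same direction was found for 304 genes, 139 up and 165 down, with a median size of 1.40 in KO and 0.53 in WT cultures (log2). A response called in KO cultures alone, with a called interaction, was found for 2935 genes, 1359 up and 1576 down, with median sizes of 1.00 and 0.15. The response was shared, called in both genotypes in 1 direction without a called interaction, for 346 genes, 179 up and 167 down. For 247 of these the 95% interval of the interaction lay between -1 and 1, within 2-fold. It was lost in KO cultures for 65 genes, reversed for 52 and smaller for 4. Of the 874 genes called in WT cultures, the other 103 had a call in WT alone and no called interaction. Reversed and lost calls rest on scaling: with library totals alone 18 of the 52 genes kept the reversed class and 12 of the 65 the lost class, against 214 of the 304 in the larger and 2099 of the 2935 in the KO-only class. Across all tested genes the responses had a Pearson r of 0.44 and a slope of KO on WT of 0.92, a description of genes that share libraries.

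**Figure D2:**
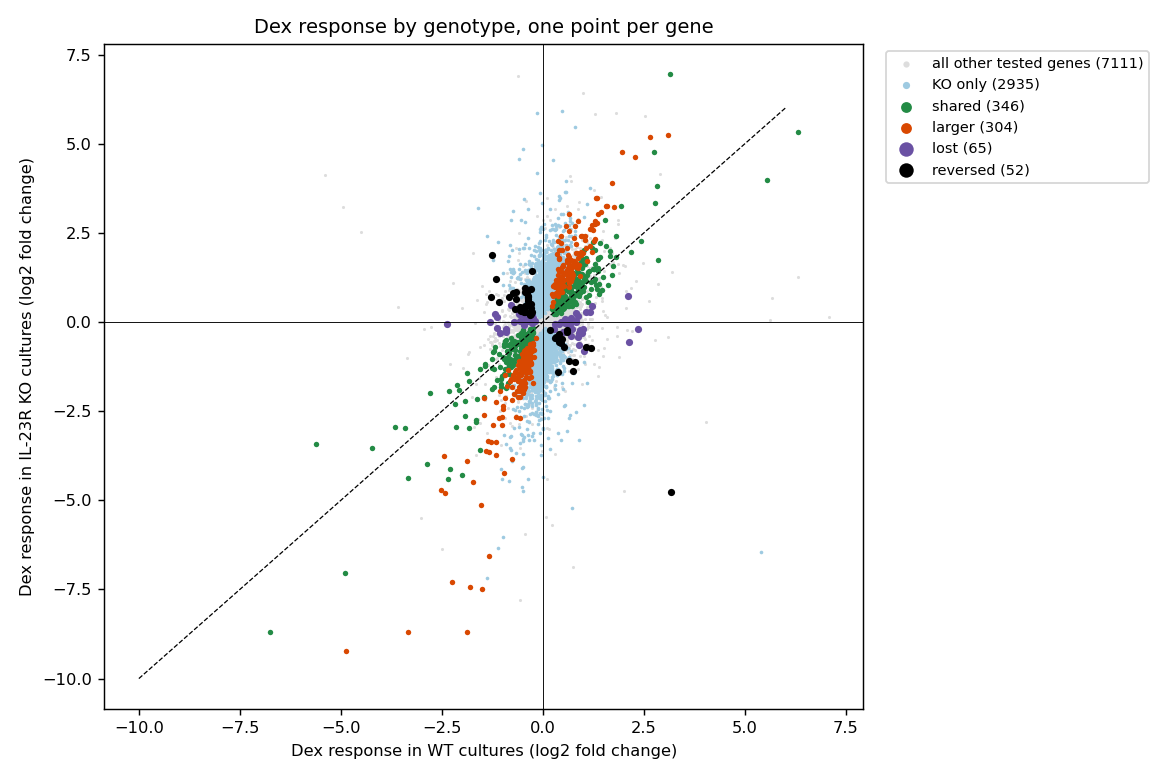
Dex response (log2 fold change) of each of 10813 genes in IL-23R KO cultures (y axis) against WT cultures (x axis), coloured by class with the number of genes in the legend; the dashed line marks equal responses. KO responses spread further than WT responses, with 5911 genes called against 874.

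Most listed glucocorticoid-induced genes had a more positive Dex response in KO cultures. Of 22 tested members of a list of 33 glucocorticoid-induced genes, 16 had a positive interaction and 1 a negative one, against 15% and 17.2% of all tested genes. In KO cultures 18 rose and none fell, against 9 that rose and 1 that fell in WT cultures (3.88 and 4.2% of all genes rose and fell there). Over all genes 27.3% rose and 27.4% fell in KO cultures. The median response of the list was 1.70 in KO and 0.44 in WT cultures, beside 0.01 for all genes in each, and the median interaction was 1.25. The list was chosen with earlier results of these data known, as were all lists below. With library totals alone it was 14 and 1, with a median of 0.90.

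Tsc22d3 (ENSMUSG00000031431.13, chrX:140539528-140600659), which encodes GILZ, a mediator of glucocorticoid effects in T cells, stood at 215, 201, 221 and 223 normalised CPM in KO Dex libraries, against 22.9, 14.5, 32.9 and 21.04 in KO Ctrl libraries. Its WT Dex values were 59.8, 53.6, 89.5 and 87.4, against 23.4, 20.2, 28.5 and 25.3 in WT Ctrl libraries. Both Dex groups lay above their controls, KO Dex lay above WT Dex, and the control groups overlapped. The response was 3.26 ± 0.20 in KO and 1.57 ± 0.20 in WT cultures (log2 ± SE), and the interaction was 1.68 ± 0.28 (95% interval 1.09 to 2.27, edgeR adjusted p = 0.000236). Txnip, an inhibitor of thioredoxin and of glucose uptake, had the same order, with 145 to 169 normalised CPM in KO Dex and 15.7 to 28.7 in KO Ctrl libraries, against 47.2 to 70.7 in WT Dex and 23.6 to 26.6 in WT Ctrl libraries. Its interaction was 1.56 ± 0.21 (edgeR adjusted p = 3.10e-05). Tgfb3, which encodes the cytokine TGF-β3, rose by 4.62 ± 0.25 in KO and 2.28 ± 0.25 in WT cultures. The metallothionein genes Mt1 and Mt2, which bind zinc, rose by 2.21 and 2.40 in KO cultures and by 0.44 and 0.44 in WT cultures, the WT rise of Mt2 not being called with library totals alone (edgeR adjusted p = 0.0873). Ddit4, an inhibitor of mTORC1, rose by 1.47 and 0.65, and its interaction of 0.82 (edgeR adjusted p = 0.0164) was not called with library totals alone (0.47, edgeR adjusted p = 0.0975, the highest over its alternatives, which began at 0.00415).

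Some members of the list rose in KO cultures alone. Per1, a circadian clock gene that is a classic GR target, stood at 88.7, 100.5, 84.1 and 122 normalised CPM in KO Dex libraries and 36.2, 26.4, 37.8 and 23.9 in KO Ctrl libraries. The WT Dex values were 26.1, 28.2, 36.9 and 33.7, against 27.9, 28.99, 38.2 and 30.03 in WT Ctrl libraries, so the WT groups overlapped entirely while the KO groups did not. Its interaction was 1.69 ± 0.23 (edgeR adjusted p = 4.75e-05). Dusp1, a phosphatase that switches off MAP kinases, had a KO response of 2.28 ± 0.16 and a WT value of 0.47 ± 0.16 that missed the threshold (edgeR adjusted p = 0.0811). Errfi1, a feedback inhibitor of EGF receptor kinases, averaged 36.5 ± 7.63 normalised CPM in KO Dex and 10.1 ± 1.57 in KO Ctrl libraries, against 9.11 ± 1.26 in WT Dex and 10.6 ± 1.05 in WT Ctrl libraries (SD, n = 4 each). Cdkn1a, the cell cycle inhibitor p21, rose by 0.92 in KO cultures and fell by 0.29 in WT cultures, with an interaction of 1.21 ± 0.11 (edgeR adjusted p = 1.06e-06).

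Sgk1 and Fkbp5 did not follow the list. Sgk1 (ENSMUSG00000019970.15, chr10:21882184-21999903), a serine kinase induced by glucocorticoids, stood at 24.3, 18.8, 14.7 and 18.9 normalised CPM in KO Dex libraries, against 6.3, 4.11, 6.43 and 4.55 in KO Ctrl libraries. In WT Dex libraries it stood at 32.4, 25.6, 30.1 and 26.9, against 12.5, 7.44, 7.52 and 9.01 in WT Ctrl libraries. Neither pair overlapped, and the responses of 1.86 ± 0.21 in KO and 1.65 ± 0.18 in WT cultures gave an interaction of 0.20 ± 0.27 (95% interval -0.38 to 0.78, edgeR adjusted p = 0.604). Fkbp5, a cochaperone of GR that limits its activity and a standard GR target, had 8.11, 7.86, 6.23 and 7.97 normalised CPM in KO Dex libraries, against 5.37, 6.26, 6.43 and 6.82 in KO Ctrl libraries. Fkbp5 in WT Dex libraries was at 8.21, 7.72, 11.1 and 10.1, against 4.64, 4.11, 5.54 and 3.43 in WT Ctrl libraries. The KO groups overlapped and the WT groups did not. The response was 0.27 ± 0.18 in KO (edgeR adjusted p = 0.24) and 1.06 ± 0.17 in WT cultures, with an interaction of -0.78 ± 0.25 (edgeR adjusted p = 0.0239, 0.00209 to 0.140 over the alternatives). That call ended with DESeq2, without a filter on low counts, with libraries thinned to equal depth, and without KO Dex library 7 (edgeR adjusted p = 0.0507).

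The Sgk1 promoter is shown because it alone, of 10493 RefSeq promoters (250 bases before to 50 after a start, GRCm38.p6, the same build as mm10) of 8224 tested genes, held the full palindromic glucocorticoid response element, AGAACA and TGTTCT with 3 bases of any kind between them. Of all 32851 promoters in the table, 3 held it (0.009132%). The single site AGAACA, which is part of the full element, was found in 12.74% of the promoters of tested genes and in 6 of 36 promoters of the list (16.67%), both strands being searched. Capitals mark the element, which starts at position -189 from 1 of several annotated Sgk1 starts (chr10:21993640-21993939, plus strand).
Sgk1: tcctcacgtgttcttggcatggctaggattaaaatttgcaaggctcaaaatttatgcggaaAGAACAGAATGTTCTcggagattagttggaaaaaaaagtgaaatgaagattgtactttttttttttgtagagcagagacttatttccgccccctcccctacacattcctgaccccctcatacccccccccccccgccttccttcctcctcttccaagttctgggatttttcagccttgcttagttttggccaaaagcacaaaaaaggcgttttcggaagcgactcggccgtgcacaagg
A match is a description of these letters and not of binding.

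The receptor gene itself moved. Nr3c1 (ENSMUSG00000024431.15, chr18:39410545-39519421) stood at 9.02, 8.202, 10.8 and 9.83 normalised CPM in KO Dex libraries, against 3.03, 3.13, 3.75 and 2.65 in KO Ctrl libraries. In WT cultures Nr3c1 was at 3.16, 3.53, 3.85 and 3.08 with Dex, against 2.42, 4.11, 2.77 and 2.14 in WT Ctrl libraries. All 4 KO Dex values lay above all others, with an interaction of 1.36 ± 0.30 (edgeR adjusted p = 0.00222), from 57 to 129 counts per group. Of 21 tested receptor, chaperone and coregulator genes, 3 had a positive and 6 a negative interaction, against 15% and 17.2% of all genes, with a median of -0.02. Hsp90b1, the HSP90 of the endoplasmic reticulum, is not among these 21 genes and belongs to the endoplasmic reticulum folding list. It fell by 0.47 in WT cultures, while in KO cultures its response missed the threshold at -0.10 ± 0.07 (edgeR adjusted p = 0.264). Its interaction of 0.38 ± 0.10 (edgeR adjusted p = 0.00779, 0.00152 to 0.905 over the alternatives) became 0.02 with library totals alone.

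**Figure D3:**
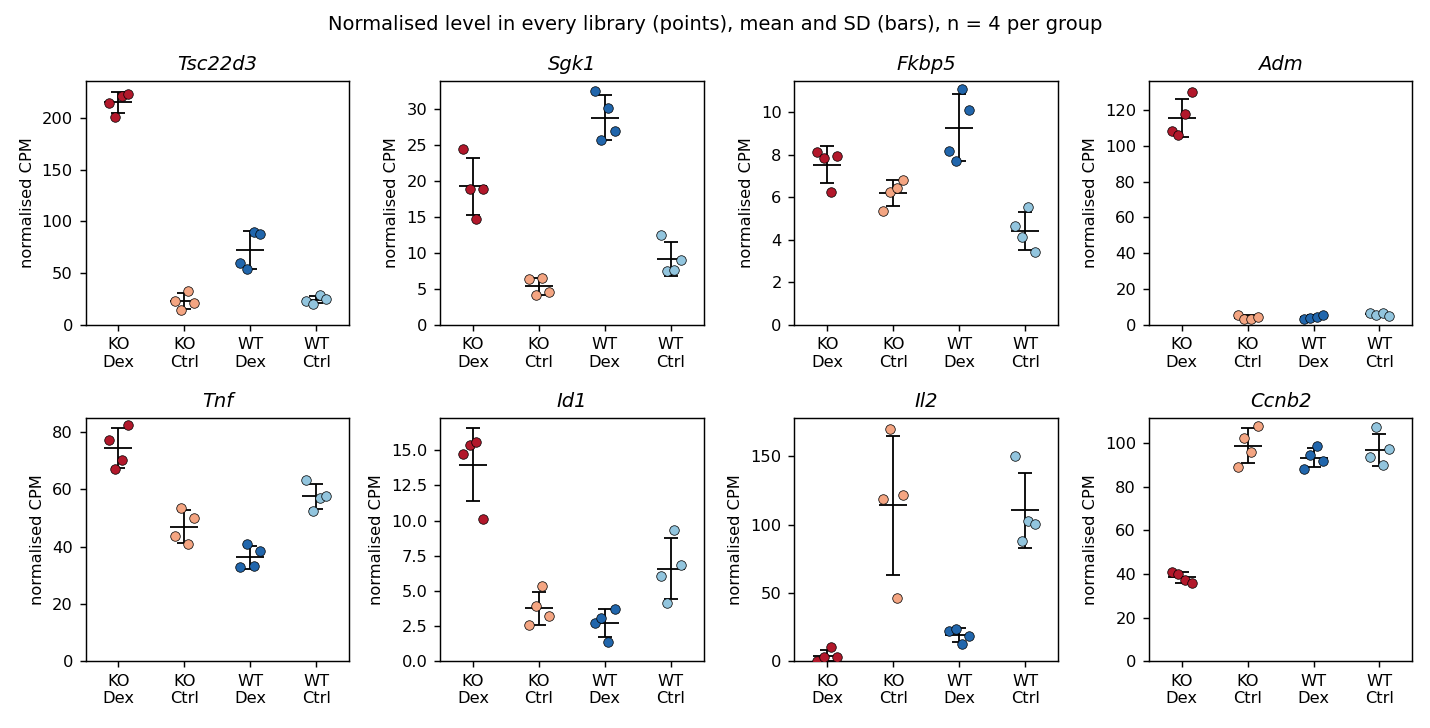
Normalised CPM (y axis, from 0) of 8 genes in each of the 16 libraries (points), with the mean and SD of each group (bars, n = 4). Tsc22d3 and Adm are highest in KO Dex libraries, Sgk1 is higher with Dex in both genotypes, Tnf and Id1 move in opposite directions in KO and WT cultures (the Tnf rise in KO was not called with library totals alone), and Ccnb2 is low in KO Dex libraries alone.

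Hypoxia-inducible and glycolytic genes rose with Dex in KO cultures, and few were called in WT cultures. Of 27 tested genes of the hypoxia-inducible factor (HIF) response, 19 had a positive interaction and none a negative one, 22 rose in KO cultures, and in WT cultures 3 rose and 2 fell. Over all genes 27.3% rose in KO and 3.88% in WT cultures, and 15% had a positive interaction. Their median response was 1.47 in KO and 0.05 in WT cultures. Of 21 glycolysis genes, 21 rose in KO cultures and none was called in WT cultures, 20 having a positive interaction. Their median response was 0.99 in KO and 0.05 in WT cultures. With library totals alone the interaction counts were 18 positive and 1 negative for the HIF list and 15 and 0 for glycolysis.

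Adm (ENSMUSG00000030790.15, chr7:110627661-110629820), which encodes the vasodilator peptide adrenomedullin and is induced by low oxygen, had the largest positive interaction among the genes named here. It stood at 108, 106, 118 and 129.9 normalised CPM in KO Dex libraries, against 5.6, 2.93, 3.21 and 4.17 in KO Ctrl libraries. Adm stood at 3.16, 3.97, 4.08 and 5.503 in WT Dex libraries, against 6.46, 5.29, 6.73 and 4.93 in WT Ctrl libraries. Only the KO Dex values were high. The KO response was 4.86 ± 0.16, the WT value -0.49 ± 0.20 (edgeR adjusted p = 0.162) and the interaction 5.35 ± 0.27 (edgeR adjusted p = 4.23e-09). Ndrg1, a stress-response gene under HIF control, averaged 855 ± 62.9 normalised CPM in KO Dex and 105 ± 26.3 in KO Ctrl libraries, against 169 ± 19.3 in WT Dex and 108 ± 17.6 in WT Ctrl libraries (SD, n = 4 each). It rose in both genotypes, by 3.03 and 0.64. P4ha1, a collagen prolyl hydroxylase, and Ier3, an early response gene that modulates apoptosis, rose in KO cultures alone, by 1.76 and 2.10, beside WT values of 0.01 and -0.13. Higd1a, a mitochondrial protein induced by hypoxia, rose by 1.43 in KO cultures and fell by 0.26 in WT cultures (edgeR adjusted p = 0.0488). Gpi1, the enzyme that converts glucose 6-phosphate to fructose 6-phosphate, stood at 1906 to 2142 normalised CPM in KO Dex libraries, against 554 to 701 in KO Ctrl, 621 to 788 in WT Dex and 584 to 719 in WT Ctrl libraries. Pfkfb3, which makes the activator of phosphofructokinase, had an interaction of 1.92 ± 0.17 (edgeR adjusted p = 6.24e-07). Hif1a, the oxygen-regulated subunit itself, rose slightly in both genotypes, by 0.22 in KO and 0.27 in WT cultures, with an interaction of -0.05 ± 0.08 (95% interval -0.21 to 0.11), but not with library totals alone, where it fell in KO cultures (-0.24), its WT rise was not called (edgeR adjusted p = 0.213) and the interaction was -0.40 (edgeR adjusted p = 0.00637).

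The promoters of Adm and P4ha1 are shown because both genes move with the HIF list and hold the core of the hypoxia response element, ACGTG or GCGTG, in capitals on either strand (CACGT and CACGC on the other). The core was found in 25 of 31 promoters of the HIF list (80.65%) and 26 of 33 of the glycolysis list (78.79%), against 62.69% of promoters of tested genes and 43.77% of all promoters in the RefSeq table (GRCm38.p6). The regions are chr7:110627407-110627706, plus strand, for Adm and chr10:59323046-59323345, plus strand, for P4ha1.
Adm: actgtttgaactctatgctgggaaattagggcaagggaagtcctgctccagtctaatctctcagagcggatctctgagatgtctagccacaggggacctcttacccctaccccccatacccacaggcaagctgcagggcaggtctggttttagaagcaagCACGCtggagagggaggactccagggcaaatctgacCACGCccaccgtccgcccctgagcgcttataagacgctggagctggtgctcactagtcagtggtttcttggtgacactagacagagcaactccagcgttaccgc
P4ha1: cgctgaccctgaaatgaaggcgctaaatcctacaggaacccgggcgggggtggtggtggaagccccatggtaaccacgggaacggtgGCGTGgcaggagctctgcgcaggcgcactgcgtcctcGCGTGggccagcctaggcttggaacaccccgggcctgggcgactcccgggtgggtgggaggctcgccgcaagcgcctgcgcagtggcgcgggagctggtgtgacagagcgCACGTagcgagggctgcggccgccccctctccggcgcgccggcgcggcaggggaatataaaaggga
So common a core distinguishes few promoters, and a match is not a bound site.

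Inflammatory NF-kB genes split by genotype. Of 19 tested genes of NF-kB subunits, inhibitors and inflammatory cytokines, 9 fell and none rose with Dex in WT cultures, against 12 that rose and 6 that fell in KO cultures, and 9 interactions were positive and 3 negative (median 0.40). Over all genes 3.88% rose and 4.2% fell in WT cultures, and 27.3% rose and 27.4% fell in KO cultures. Positive and negative interactions made up 15% and 17.2% of all genes, so the share of negative ones in the list was near that of all genes. This list is sensitive to scaling: with library totals alone 4 rose and 7 fell in KO cultures and the median interaction was 0.05. Tnf (ENSMUSG00000024401.14, chr17:35199381-35202007), the inflammatory cytokine TNF, stood at 77.2, 66.98, 70.2 and 82.3 normalised CPM in KO Dex libraries, against 43.6, 53.4, 40.99 and 49.8 in KO Ctrl libraries. The WT Dex values were 32.8, 40.8, 33.1 and 38.3, against 63.2, 52.3, 56.8 and 57.5 in WT Ctrl libraries. The KO pair and the WT pair were each apart, in opposite directions, giving 0.66 ± 0.10 in KO, -0.66 ± 0.11 in WT cultures and an interaction of 1.32 ± 0.15 (edgeR adjusted p = 6.91e-06). Lta, its neighbour on chromosome 17, which encodes lymphotoxin α, had 297, 282, 284 and 289 normalised CPM in KO Dex libraries and 188, 133, 171 and 155 in KO Ctrl libraries. Lta in WT Dex libraries was at 159, 147, 125 and 131, against 206, 169, 213 and 172 in WT Ctrl libraries, and the interaction was 1.27 ± 0.15. Tnfaip3, the ubiquitin-editing inhibitor A20, and Bcl2a1b, an NF-kB-induced survival gene with near-identical copies that could share its reads, reversed as well, with interactions of 0.86 ± 0.16 and 1.04 ± 0.16. With library totals alone the KO responses of Tnf, Tnfaip3 and Bcl2a1b were 0.18, -0.14 and -0.10 and were not called (edgeR adjusted p = 0.223, 0.289 and 0.463), while their interactions stayed called. Nfkb1, the p105 and p50 subunit, rose by 1.36 in KO cultures alone.

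Several T cell growth factor and Th2 cytokine genes fell with Dex in both genotypes, and Il2, Il3, Il5 and Il13 fell further in KO cultures. Of 9 tested genes of the Th2 list, 6 fell in WT and 7 fell in KO cultures, and 1 rose in KO cultures. Over all genes 4.2% fell in WT cultures, and 27.4% fell and 27.3% rose in KO cultures. Of the interactions of the list 4 were negative and 1 positive, against 17.2% and 15% of all genes. Il2, the T cell growth factor, stood at 0.601, 3.42, 10.2 and 2.92 normalised CPM in KO Dex libraries, against 119, 169.8, 46.1 and 122 in KO Ctrl libraries. In WT cultures Il2 was at 22.3, 23.6, 12.7 and 18.3 with Dex, against 150.4, 87.96, 103 and 101 in WT Ctrl libraries. The Dex groups lay apart from their controls and from each other, and the interaction was -2.20 ± 0.63 (edgeR adjusted p = 0.0135). Il5, which drives eosinophils, had 1 count over the 4 KO Dex libraries and 1116 over KO Ctrl, against 28 in WT Dex and 893 in WT Ctrl. Il13, which drives mucus and IgE responses, had 2 counts over KO Dex and 1366 over KO Ctrl, against 56 in WT Dex and 614 in WT Ctrl. Both interactions were called (edgeR adjusted p = 0.00542 and 0.000284), but a fitted fold against so few counts depends on the prior count and is not read. Il5 lost its call with limma-voom (limma adjusted p = 0.0664, the highest of its alternatives, which began at 0.000362). Il3, a myeloid growth factor, fell by 4.78 in KO and 2.43 in WT cultures. Gata3, the Th2 transcription factor, stood at 23.9 to 29.8 normalised CPM in KO Dex and 147 to 177 in KO Ctrl libraries, against 40.8 to 61.4 in WT Dex and 119 to 158 in WT Ctrl libraries, with an interaction of -1.17 ± 0.19 (edgeR adjusted p = 0.000223). The chemokine receptor gene Ccr8 fell by 1.65 and 0.82. Il4 was called down in both genotypes, with an interaction of -0.71 ± 0.35 that missed the threshold (edgeR adjusted p = 0.134, 0.0177 to 0.279 over the alternatives, called with library totals alone).

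Transcription factors of the Th17 state moved in both directions. Rora, which encodes the Th17-promoting nuclear receptor RORα, rose in KO cultures, with 35.9 to 45.6 normalised CPM in KO Dex and 9.98 to 12.7 in KO Ctrl libraries, against 13.4 to 21.8 in WT Dex and 11.6 to 19.6 in WT Ctrl libraries. Its interaction was 1.68 ± 0.25 (edgeR adjusted p = 8.26e-05). Batf, an AP-1 factor that opens Th17 loci, fell by 1.28 in KO and 0.57 in WT cultures.

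The Th17 cytokines gave no called interaction. Il17a stood at 0, 1.03, 0 and 1.86 normalised CPM in KO Dex libraries, against 13.5, 8.22, 2.68 and 14.02 in KO Ctrl libraries. The WT Dex values were 121, 103, 24.01 and 16.1, against 129, 22.3, 32.5 and 32.6 in WT Ctrl libraries. The WT libraries of each treatment spread over several fold, WT Ctrl library 1 being far above the other 3, and the interaction of -3.98 ± 1.56 missed the threshold (edgeR adjusted p = 0.0606, 0.00950 to 0.391 over the alternatives, called in 9 of 25). Il17f had 1.503, 2.39, 1.98 and 2.66 normalised CPM in KO Dex libraries, against 7.0, 3.13, 1.88 and 2.84 in KO Ctrl libraries, and 86.96 to 261 in WT Dex and 38.8 to 152 in WT Ctrl libraries. Its interaction was -2.14 ± 1.12 (95% interval -4.51 to 0.23, edgeR adjusted p = 0.158). With Dex both cytokine genes were lower in KO than in WT cultures, by log2 differences of -6.43 for Il17a and -6.34 for Il17f (edgeR adjusted p = 0.00017 and 1.20e-06). Without Dex the difference was -4.20 for Il17f (edgeR adjusted p = 0.00204) and -2.45 for Il17a, which missed the threshold (edgeR adjusted p = 0.157). The KO Dex groups hold only 10 counts of Il17a and 29 of Il17f over 4 libraries. Csf2, the encephalitogenic cytokine GM-CSF, was too low to test, with 4 counts in all, in WT Ctrl libraries. Of 12 tested Th17 identity genes, 2 had a positive and 4 a negative interaction, with a median of -1.17. Over all genes the shares were 15% and 17.2%, so the positive share of the list was near that of all genes.

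Il23a, the p19 subunit of IL-23, rose in both genotypes and more in KO cultures, where it stood at 33.4, 37.6, 43.04 and 40.1 normalised CPM with Dex, against 1.4, 1.37, 0.804 and 0.569 in KO Ctrl libraries. Il23a in WT Dex libraries was at 10.7, 6.17, 6.79 and 2.201, against 0.808, 0.588, 0.792 and 1.93 in WT Ctrl libraries. Its interaction of 2.54 ± 0.69 (edgeR adjusted p = 0.00926, up to 0.0565 without WT Ctrl library 4) starts from only 19 and 20 counts over the control groups. Of 18 tested receptor signalling genes, 6 interactions were positive and 2 negative, against 15% and 17.2% of all genes. Their median of 0.19 became -0.15 with library totals alone. Jak1, a kinase shared by many cytokine receptors, rose by 1.00 in KO and 0.26 in WT cultures, the WT rise not being called with library totals alone (edgeR adjusted p = 0.262). Stat3, the transcription factor downstream of IL-23R, had an interaction of 0.37 ± 0.10 that became 0.03 with library totals alone. Il23r fell with Dex in KO cultures (edgeR adjusted p = 0.0275) and gave an interaction of -1.67 ± 0.45 (edgeR adjusted p = 0.00964). Its count in KO libraries comes from a targeted gene. Ccr6, the chemokine receptor of Th17 cells, had an interaction of -2.45 ± 0.84, called without a call in either genotype, and lost under 9 of 24 alternatives (edgeR adjusted p = 0.0333).

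Of 14 tested genes of a pathogenic Th17 list, 3 interactions were positive and 1 negative, beside 15% and 17.2% of all genes. So few calls are not read as a trait of the list, and with library totals alone 1 was positive and 3 negative. Spp1, which encodes osteopontin and is not on that list, had 5 counts over KO Dex and 1392 over KO Ctrl libraries, against 473 in WT Dex and 1445 in WT Ctrl, and was called larger in its fall (interaction edgeR adjusted p = 0.000623; 0.134 by limma-voom, the highest of its alternatives). Pdpn, the surface mucin podoplanin and a member of the co-inhibitory list, had 1 count over KO Dex and 181 over KO Ctrl libraries, against 58 in WT Dex and 160 in WT Ctrl. Of 12 tested Th1 genes, 2 interactions were positive and 3 negative, beside the same 15% and 17.2% of all genes. These few calls are likewise not read as a trait of the list, and with library totals alone none was positive and 5 were negative. Tbx21, the Th1 transcription factor T-bet, and Gzmb, which encodes granzyme B, fell in both genotypes, by 2.74 and 0.83 in KO and by 1.66 and 1.22 in WT cultures. The Tbx21 interaction of -1.09 (edgeR adjusted p = 0.105) was called with library totals alone (-1.46, edgeR adjusted p = 0.0322). Ifng was sparse, with 3 counts over KO Dex and 212 over KO Ctrl, against 7 in WT Dex and 66 in WT Ctrl, and its interaction was not called (edgeR adjusted p = 0.341).

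Some responses were called in both genotypes without a called interaction. Neb, which encodes the muscle protein nebulin, stood at 57.1, 58.4, 51.8 and 61.6 normalised CPM in KO Dex libraries, against 4.2, 6.46, 5.09 and 6.63 in KO Ctrl libraries. In WT cultures Neb was at 26.5, 28.7, 31.7 and 35.4 with Dex, against 4.44, 3.92, 4.55 and 4.72 in WT Ctrl libraries. Both rises were clear of their controls (3.33 ± 0.14 and 2.79 ± 0.14), and the interaction of 0.54 ± 0.21 (edgeR adjusted p = 0.0543, called in 6 of 25 alternatives) had an interval of 0.11 to 0.98, which lies above 0. Thada, linked to metabolic regulation, rose by 1.98 in KO and 1.65 in WT cultures, and its interval of -0.14 to 0.80 holds it within 2-fold. Xbp1, the unfolded protein response factor, rose by 0.80 and 0.74, with an interaction of 0.06 ± 0.20. Gsn, the actin-severing protein gelsolin, stood at 67.96 to 97.4 normalised CPM in KO Dex and 178 to 243 in KO Ctrl libraries, against 69.9 to 84.3 in WT Dex and 205 to 257 in WT Ctrl libraries. Dusp4, a MAP kinase phosphatase, fell by 1.10 in KO and 0.86 in WT cultures, but with library totals alone its interaction was called (-0.59, edgeR adjusted p = 0.0236).

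**Figure D4:**
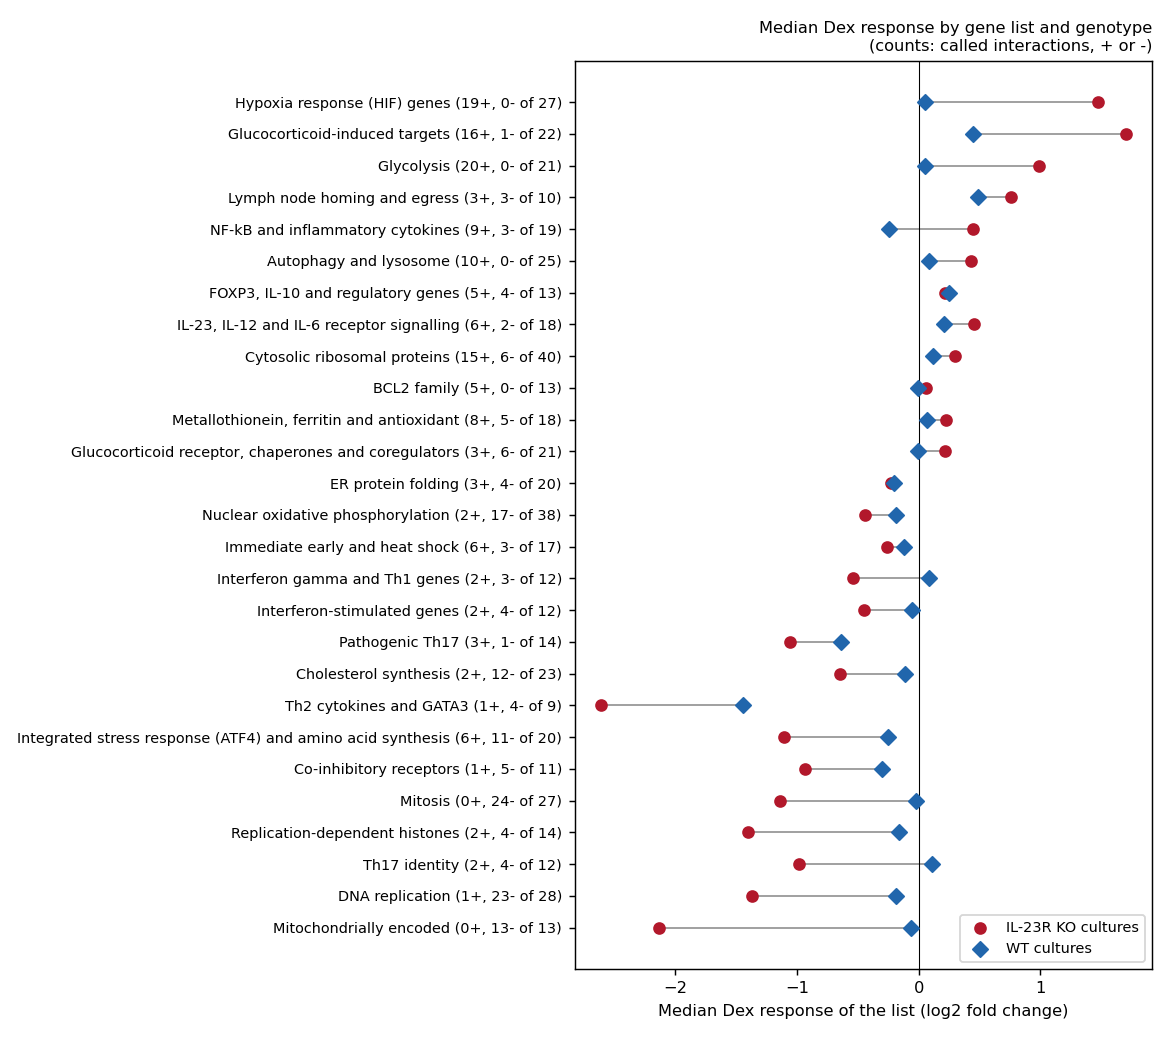
Median Dex response (log2 fold change, x axis) of the tested members of each gene list in IL-23R KO cultures (circles) and WT cultures (diamonds), ordered by median interaction, with the number of called positive (+) and negative (-) interactions beside each name. HIF, glucocorticoid target and glycolysis lists lie furthest to the right in KO cultures, and Th2 and mitochondrially encoded lists furthest to the left; all genes have a median of 0.01 in each genotype.

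Cell cycle genes fell with Dex in KO cultures. Of 27 mitosis genes, 25 fell in KO cultures and none was called in WT cultures, with 24 negative interactions and none positive. Over all genes 27.4% fell in KO and 4.2% in WT cultures, and 17.2% had a negative interaction. Of 28 DNA replication genes, 26 fell in KO and 1 in WT cultures, with 23 negative interactions and 1 positive. The median interactions were -1.06 and -1.32, and with library totals alone the counts were 25 and 26 negative. Ccnb2, cyclin B2 of mitotic entry, stood at 40.9, 39.98, 37.1 and 35.9 normalised CPM in KO Dex libraries, against 89.1, 102, 95.9 and 108 in KO Ctrl libraries. Ccnb2 stood at 88.4, 94.6, 98.5 and 91.8 in WT Dex libraries, against 93.5, 107, 89.9 and 97.2 in WT Ctrl libraries, and only the KO Dex values were low. Plk1, the mitotic kinase, had an interaction of -1.84 ± 0.19, and Top2a, the topoisomerase of dividing cells, of -1.81 ± 0.13 (edgeR adjusted p = 3.63e-06 and 9.14e-08). Mcm5, a subunit of the replicative helicase, averaged 22.4 ± 3.53 normalised CPM in KO Dex and 93.8 ± 19.1 in KO Ctrl libraries, against 84.4 ± 5.55 in WT Dex and 93.1 ± 8.18 in WT Ctrl libraries (SD, n = 4 each). Replication-dependent histone genes, mostly not polyadenylated, had 4 negative and 2 positive interactions among 14.

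The promoters of Ccnb2 and Plk1 are shown because they hold the cell cycle homology region TTTGAA, the element through which the DREAM and MuvB complexes act on mitotic genes, in capitals. It was found, on either strand, in 19 of 25 promoters of the mitosis list (76.0%), against 12.49% of promoters of tested genes and 17.89% of all promoters in the RefSeq table (GRCm38.p6). The regions are chr9:70421505-70421804, minus strand, for Ccnb2 and chr7:122159185-122159484, plus strand, for Plk1, each written along its gene.
Ccnb2: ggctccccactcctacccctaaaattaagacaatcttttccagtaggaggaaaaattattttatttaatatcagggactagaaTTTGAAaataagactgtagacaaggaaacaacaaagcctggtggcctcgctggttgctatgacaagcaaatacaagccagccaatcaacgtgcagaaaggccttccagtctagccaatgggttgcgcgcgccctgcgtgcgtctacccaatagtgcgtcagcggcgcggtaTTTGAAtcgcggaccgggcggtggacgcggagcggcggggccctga
Plk1: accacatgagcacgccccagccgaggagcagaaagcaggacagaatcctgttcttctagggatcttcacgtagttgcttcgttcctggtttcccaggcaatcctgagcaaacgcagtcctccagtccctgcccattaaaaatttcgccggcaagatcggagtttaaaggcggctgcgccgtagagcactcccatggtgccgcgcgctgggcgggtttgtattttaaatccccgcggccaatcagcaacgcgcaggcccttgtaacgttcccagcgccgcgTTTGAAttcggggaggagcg
The element is typical of mitotic genes whatever their response, so its presence says nothing of the factor at work here.

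Mitochondrially encoded genes were lower in KO Dex libraries. All 13 mitochondrially encoded genes had a negative interaction and 12 fell in KO cultures, with a median response of -2.13 in KO and -0.07 in WT cultures, where none was called. The sizes of the fall ranged widely: mt-Nd1, a subunit of complex I, fell by 3.10 and stood at 229.8 to 299 normalised CPM in KO Dex and 2133 to 2523 in KO Ctrl libraries, against 1728 to 2768 in WT Dex and 2157 to 2975 in WT Ctrl libraries. mt-Co3, a subunit of complex IV, fell by 1.14. Of 38 nuclear oxidative phosphorylation genes, 17 interactions were negative and 2 positive, against 17.2% and 15% of all genes, and 28 fell in KO and 13 in WT cultures. Over all genes 27.3% rose and 27.4% fell in KO cultures, and 4.2% fell in WT cultures. Of 40 cytosolic ribosomal protein genes, 24 rose and 5 fell in KO cultures. Of their interactions 15 were positive and 6 negative, the negative share being near that of all genes. The interaction counts turned to 5 and 20 with library totals alone. Cholesterol synthesis had 12 negative and 2 positive interactions of 23, with 16 genes down and 4 up in KO cultures, among the negative ones Fdps, which makes farnesyl pyrophosphate (-1.01 ± 0.08), and Dhcr7, the last enzyme of the pathway (-1.66 ± 0.22).

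Over 20 tested genes of the integrated stress response and amino acid synthesis list, 6 interactions were positive and 11 negative, against 15% and 17.2% of all genes. Atf4, its central transcription factor, stood at 273, 259, 260.2 and 278 normalised CPM in KO Dex libraries, against 133, 128, 145 and 136 in KO Ctrl libraries. The WT Dex values were 126, 119.9, 124 and 116, against 142, 131, 135 and 124 in WT Ctrl libraries. Only the KO Dex values were high, and Ppp1r15a, the phosphatase subunit GADD34 that ends the response, rose by 2.06 in KO cultures alone. Phgdh, the entry enzyme of serine synthesis, went down: 42.1, 45.8, 43.6 and 44.1 normalised CPM in KO Dex libraries, against 250.4, 326, 271 and 291 in KO Ctrl libraries. Phgdh in WT Dex libraries was at 174, 184, 167 and 151, against 219, 274, 258 and 244 in WT Ctrl libraries, for an interaction of -2.14 ± 0.13 (edgeR adjusted p = 2.55e-08). Asns, asparagine synthetase, fell by 2.10 in KO and 0.56 in WT cultures.

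Survival, autophagy, homing and co-inhibitory receptor genes were examined as further lists. Of 13 BCL2 family genes, 5 interactions were positive and none negative, against 15% and 17.2% of all genes, with a median of 0.16. The counts were 5 and 3 with library totals alone, with a median of -0.19, and with a replicate block 5 and 2. Bcl2 and Mcl1, which protect from apoptosis, rose by 1.52 and 1.76 in KO and by 0.64 and 0.40 in WT cultures. The WT rise of Mcl1 was not called with DESeq2 size factors (edgeR adjusted p = 0.0535) or library totals alone (edgeR adjusted p = 0.139). Bcl2l11, the pro-apoptotic BIM that glucocorticoids induce in lymphocytes, rose too, with 12.6 to 18.7 normalised CPM in KO Dex and 0.758 to 1.63 in KO Ctrl libraries, against 3.37 to 6.34 in WT Dex and 1.41 to 2.18 in WT Ctrl libraries. The autophagy and lysosome list had 10 positive interactions of 25 and none negative, with 4 and 2 under library totals alone. Among 10 homing genes 3 were positive and 3 negative, or 1 and 4 with library totals alone. Ccr7, the lymph node homing receptor, had an interaction of 1.53 ± 0.20, its WT rise not being called with library totals alone (edgeR adjusted p = 0.102) or DESeq2 size factors (edgeR adjusted p = 0.0523). Of 11 tested genes of the co-inhibitory receptor list, 5 interactions were negative and 1 positive, among the negative ones Tigit (-1.07 ± 0.14) and Btla (-1.49 ± 0.13). That list also holds genes that are not co-inhibitory receptors, such as Nr4a1, Nr4a2 and Nr4a3. Fth1, the ferritin heavy chain that stores iron, rose to 2681 to 2952 normalised CPM in KO Dex, against 475 to 595 in KO Ctrl libraries, and to 1149 to 1339 in WT Dex, against 606 to 669.6 in WT Ctrl libraries.

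The remaining lists had called interactions in both directions, beside 15% positive and 17.2% negative over all genes. They were the lists of regulatory T cell genes (5 positive, 4 negative of 13), interferon-stimulated genes (2 and 4 of 12), endoplasmic reticulum folding (3 and 4 of 20), immediate early and heat shock genes (6 and 3 of 17) and metallothionein, ferritin and antioxidant genes (8 and 5 of 18). Among genes of the larger class named by the rule, Isg20, an interferon-induced exonuclease, had an interaction of 2.83 ± 0.39, and Icos, a costimulatory receptor, of 1.00 ± 0.18. In the KO-only class, Gipr, a receptor for the incretin GIP, stood at 108, 112, 91.7 and 107 normalised CPM in KO Dex libraries, against 15.6, 5.09, 11.5 and 9.29 in KO Ctrl libraries. In WT cultures Gipr was at 15.4, 11.7, 15.6 and 14.5 with Dex, against 13.9, 9.21, 16.2 and 19.1 in WT Ctrl libraries. Only the KO Dex values were high, and the interaction was 3.38 ± 0.34 (edgeR adjusted p = 2.12e-06).

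Among reversed responses, Id1, an inhibitor of basic helix-loop-helix factors, stood at 14.7, 15.4, 15.6 and 10.1 normalised CPM in KO Dex libraries, against 2.57, 3.91, 5.36 and 3.22 in KO Ctrl libraries. Id1 stood at 2.74, 3.09, 1.36 and 3.74 in WT Dex libraries, against 6.06, 4.11, 9.31 and 6.86 in WT Ctrl libraries. Both pairs were apart in opposite directions (1.89 ± 0.28 in KO, -1.26 ± 0.30 in WT cultures), and Gadd45b, a stress-induced MAP kinase activator, did the same with an interaction of 2.39 ± 0.33. The opposite reversal, up in WT and down in KO cultures, was found for Nrp1, the semaphorin receptor neuropilin-1 (-1.76 ± 0.34), Treml2, a myeloid-type receptor also made by T cells (-1.77 ± 0.17), and Lsp1, an actin-binding leukocyte protein (-1.24 ± 0.14). With library totals alone Treml2 lost its WT call, and the others named here kept the class. Sv2c, a synaptic vesicle protein, had 7.21, 3.42, 4.25 and 5.84 normalised CPM in KO Dex libraries, against 7.23, 9.19, 6.43 and 7.96 in KO Ctrl libraries. The WT Dex values were 22.7, 15.7, 23.6 and 25.5, against 3.03, 5.29, 4.36 and 7.29 in WT Ctrl libraries, so the WT groups were apart and the KO groups overlapped (2.13 ± 0.24 in WT; -0.57 ± 0.27 in KO, edgeR adjusted p = 0.0814). Tasp1, the protease that cleaves MLL, lost its rise too (-1.29 ± 0.18), and with library totals alone both were called down in KO cultures. Pcgf2, a polycomb subunit, and Rabl6, a small GTPase, fell in WT cultures alone, with interactions of 1.31 ± 0.39 and 0.87 ± 0.19, the Pcgf2 one not called with library totals alone (edgeR adjusted p = 0.0723). Smaller responses were called for 4 genes, of which Ahcy, the enzyme that clears S-adenosylhomocysteine, rose by 0.39 in KO and 0.73 in WT cultures. Atxn10 and Plp2 had interactions of -0.33 and -0.24 that lost their call in 13 and 16 of 25 alternatives. None of the 3 kept the smaller class with library totals alone.

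Median gene length differed between directions, while the interaction correlated only weakly with gene properties. Genes with a called positive interaction had a median exon length of 4481 bases and those with a called negative one 3574.5 bases, beside 4233 for all tested genes. All tested genes split by the sign of the interaction, called or not, had medians of 4560 and 3948 bases, so the difference is not particular to called genes. The correlation of the interaction with log2 length was 0.08 across 10721 genes, with GC content -0.05 across 10714 genes and with log2 CPM -0.03.

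The GR libraries of the series compare T cells by their GR genotype label. They hold 2D2+ T cells, which carry a myelin-specific receptor, from the central nervous system (CNS) of mice with experimental autoimmune encephalomyelitis, GR cKO (libraries 5, 6, 7 and 9) and GR WT (libraries 1 to 4), with no Dex named in the labels. Nr3c1 averaged 5.74 ± 0.418 normalised CPM in GR cKO and 14.1 ± 2.34 in GR WT libraries, and Tsc22d3 65.3 ± 12.4 and 139 ± 25.5 (SD, n = 4 each), with edgeR adjusted p = 0.113 and 0.153. No gene of 11148 was called (0%) by edgeR, 1226 having an unadjusted p under 0.05, and 122 were called by DESeq2. The median cKO difference was -0.11 for 131 genes with a larger rise in KO cultures and -0.05 for 153 genes with a larger fall. It was -0.05 for 161 shared rises, -0.05 for 143 shared falls and -0.01 for all 9973 genes tested in both. Its sign thus did not follow the direction of the Dex response in these classes. Across the 9973 genes the interaction and the cKO difference had a Pearson r of 0.03.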

How the data were processed

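RNA of 16 in vitro Th17 libraries (and, for the last comparison, 8 CNS libraries) was measured with a modified SMART-Seq2 protocol, per the labels. The authors deposited tables of expected counts per gene symbol, made with RSEM 1.3.3 on mm10, per the submitters' processing notes; which aligner, gene annotation and rounding were used is not given in the sources used here. The deposited expected counts were whole numbers and entered the tests as they were. Each of the 31053 symbols was kept, repeat features included. SMART-Seq2 has no molecular identifiers or strand, so counts are of reads, and overlapping or near-identical genes cannot be told apart.

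Genes passed edgeR 4.0.16 filterByExpr (minimum count 10, minimum total 15), leaving 10813, and were fitted with TMM scaling and 4 group means by the quasi-likelihood F test, with Benjamini-Hochberg adjustment over all tested genes and a threshold of 0.05 (R 4.3.3). Intervals are at 95%. Depth was 3320586 to 4732419 counts, at which 3 counts, the limit that a count of 0 allows, are 0.634 to 0.903 CPM, covering counting error only. Replicate libraries all differed beyond sampling noise (chi-square over degrees of freedom at least 4.03). The fit was checked on simulated counts. Alternatives were DESeq2 1.42.0, limma-voom (limma 3.58.1), other scalings, filters and thresholds, removal of repeat and mitochondrial features, thinning, a replicate block and leaving out each library. Genes named are fixed glucocorticoid, cytokine and list members, plus up to 5 per direction and class with the largest interaction at a group mean of at least 10 CPM. The members and lists were chosen with earlier results of these data known. Gene coordinates are from GENCODE M21, where 10721 tested genes (99.1%) were found, and promoters from RefSeq GRCm38.p6, both of the mm10 build. The other libraries of the series were not used here, and some genes are not reported here.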

Additional observations from a re-analysis of the deposited data

Results flagged for a closer look

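The Dex response differed between genotypes by the interaction test at 3487 genes, and 52 of these had opposite responses called in KO and WT cultures. Repeat and ribosomal RNA features, which are not among the named genes but are part of the library totals, took a mean of 34.1% of counts in KO Dex libraries, above every other group. With repeat, ribosomal RNA and mitochondrial features removed there were 3467 interactions, 3445 of them among the 3487.

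Interactions more positive in KO cultures (log2) were found for Adm (5.35), Gipr (3.38), Id1 (3.15), Isg20 (2.83), Il23a (2.54), Gadd45b (2.39), Ndrg1 (2.39), Tgfb3 (2.35), Ier3 (2.22), Bcl2l11 (2.17), Errfi1 (2.07), Mt2 (1.96), Ppp1r15a (1.93), Pfkfb3 (1.92). Smaller positive values were those of Dusp1 (1.81), Mt1 (1.77), P4ha1 (1.75), Per1 (1.69), Tsc22d3 (1.68), Higd1a (1.68), Rora (1.68), Gpi1 (1.59), Txnip (1.56), Ccr7 (1.53), Fth1 (1.45), Nr3c1 (1.36), Mcl1 (1.35), Tnf (1.32), Pcgf2 (1.31). The lowest positive values were those of Nfkb1 (1.31), Lta (1.27), Cdkn1a (1.21), Atf4 (1.12), Bcl2a1b (1.04), Icos (1.00), Bcl2 (0.88), Rabl6 (0.87), Tnfaip3 (0.86), Ddit4 (0.82), Jak1 (0.74), Hsp90b1 (0.38), Stat3 (0.37). 

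Interactions more negative in KO cultures (log2) were found for mt-Nd1 (-2.86), Sv2c (-2.70), Ccr6 (-2.45), Il3 (-2.35), Il2 (-2.20), Phgdh (-2.14), Mcm5 (-1.93), Plk1 (-1.84), Top2a (-1.81), Treml2 (-1.77), Nrp1 (-1.76), Il23r (-1.67), Dhcr7 (-1.66), Asns (-1.55), Btla (-1.49). Weaker negative values were those of Ccnb2 (-1.31), mt-Co3 (-1.30), Tasp1 (-1.29), Lsp1 (-1.24), Gata3 (-1.17), Tigit (-1.07), Fdps (-1.01), Ccr8 (-0.83), Fkbp5 (-0.78), Batf (-0.71), Ahcy (-0.34), Atxn10 (-0.33), Plp2 (-0.24). The fitted values of Spp1 (-5.98), Il13 (-5.36), Pdpn (-5.21), Il5 (-4.36) rest on 5 or fewer counts over the KO Dex libraries and depend on the prior count.

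Dixon's criterion was applied to sets of 4 libraries of 1 group, where chance flags about 1 in 20 sets of continuous values. A set with all but 1 library at 0 (others 0 to 0 below) always meets it, so that rate does not hold for such sets. Of 364 sets, 21 had a highest or lowest library set apart (18.2 at 1 in 20). In normalised CPM, they were Fkbp5 in KO Dex library 7 (6.23, others 7.86 to 8.11), Errfi1 in WT Ctrl library 2 (9.01, others 11.1 to 11.2), Txnip in KO Dex library 8 (169, others 145 to 146), Ndrg1 in WT Dex library 2 (140.2, others 178 to 179.6), Il5 in KO Dex library 5 (0.301, others 0 to 0), Il5 in WT Ctrl library 4 (63.5, others 38.0 to 40.7), Il13 in KO Dex library 5 (0.601, others 0 to 0), Il4 in KO Ctrl library 7 (60.5, others 29.2 to 32.7). Further ones were Il17a in WT Ctrl library 1 (129, others 22.3 to 32.6), Il17f in WT Ctrl library 1 (152, others 38.8 to 42.0), Il23a in WT Ctrl library 4 (1.93, others 0.588 to 0.808), Ccr6 in WT Ctrl library 1 (12.1, others 1.57 to 3.37), Ifng in KO Dex library 8 (0.797, others 0 to 0), Ifng in WT Dex library 2 (1.54, others 0 to 0), Gzmb in KO Dex library 8 (679, others 583 to 592), Mcm5 in WT Ctrl library 2 (105, others 87.9 to 90.7). The rest were Pdpn in KO Dex library 6 (0.342, others 0 to 0), Id1 in KO Dex library 8 (10.1, others 14.7 to 15.6), Atxn10 in KO Dex library 6 (49.6, others 54.4 to 55.0), Plp2 in KO Ctrl library 8 (298, others 307 to 309), Plp2 in WT Ctrl library 1 (285, others 302 to 303).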

How the results depend on the processing

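Scaling by library totals alone gave 769 positive and 3439 negative interactions, 2 smaller responses and 45 genotype differences without Dex. It also turned the interactions of Sgk1 (-0.15), Thada (-0.015), Xbp1 (-0.27) and Gsn (-0.10), none of them called, and the list medians of ribosomal proteins, BCL2 family, autophagy, IL-23 signalling, regulatory and antioxidant genes to below 0. Smaller responses numbered 1 without a filter on low counts and 7 at a mean of at least 10 CPM, where the Hif1a interaction was 0.0041. After thinning, that of Dusp4 was 0.039. At an adjusted p under 0.01 there were 127 larger, 1955 KO-only, 176 shared, 1 smaller, 25 lost and 13 reversed responses, and with an absolute log2 of at least 1 there were 47, 1276, 99, 0, 12 and 3. The cause of these changes was not tested, beyond the stricter thresholds themselves. DESeq2 called 122 genes between GR cKO and GR WT.

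Leaving out 1 library at a time gave 3077 to 3643 interactions (1406 to 1733 positive, 1662 to 1910 negative), 5421 to 5999 calls in KO and 531 to 950 in WT cultures. Classes ranged over 187 to 354 larger, 2519 to 3040 KO-only, 218 to 371 shared, 1 to 5 smaller, 43 to 71 lost and 34 to 52 reversed. Genotype differences numbered 4526 to 5066 with Dex and 26 to 77 without, and GR calls 0 to 2. Without WT Ctrl library 2 there were 531 WT calls, 187 larger, 218 shared and 43 lost responses; without WT Dex library 3, 571 and 198 larger; without WT Dex library 4, 202 larger; without WT Ctrl library 4, 34 reversed. Genotype differences without Dex fell to 45 without WT Ctrl library 1 or 4, 34 without KO Ctrl library 6 and 26 without KO Ctrl library 8. The Xbp1 interaction ranged over -0.039 to 0.186, below 0 without KO Ctrl library 6, WT Dex library 2 or KO Dex library 6, and that of Ifng over -5.61 to 1.37, above 0 without WT Dex library 2.

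Replicate numbers are shared by the Dex and Ctrl libraries of a genotype. Of 8 same-numbered pairs, 0 had a correlation of deviations over 0.1, and 4 of 8 were highest with their own number. Correlations over all genes cannot exclude a pairing, so whether the numbers pair the libraries is not known. With a replicate block there were 3345 interactions, 1548 positive and 1797 negative. Of 2161 values for 87 genes over 25 settings, 2078 kept their direction and side of the threshold, 50 lost and 23 gained a call and 10 turned. The alternatives for genotype differences and list medians were chosen after seeing the data. Depth limits Il5, Il13, Pdpn, Spp1, Ifng and Il17a most, each with at most 10 counts over the KO Dex libraries.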
